A study of Mus musculus with 6 samples.

Results

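The genes examined here encode the nuclear subunits and assembly factors of mitochondrial complex I, measured in microglia, the resident macrophages of the brain, with and without miR-137. They were chosen by name alone, as every row of the deposited count table whose gene symbol begins with Nduf, which gave 45 of 17459 genes. RNA sequencing covered 3 libraries of each of 2 genotypes. The control mice (cWT) were Mir137+/+;Tmem119-CreERT2 and the conditional knockout mice (cKO) were Mir137loxP/loxP;Tmem119-CreERT2, so that both carried the Cre recombinase. Both received tamoxifen, which activates this Cre, on 7 consecutive days at an age of 7 to 8 weeks. All mice were male C57BL/6J, with an age label of 8 weeks. The Cre is expressed from Tmem119, a gene used as a microglial marker. Microglia were isolated from 4 adult mice per the labels, which do not say how the mice fall into the 3 replicates of a genotype, so the p-values below cover the variation among these libraries alone, part or all of which could be technical. The question put to the comparison was which transcripts change in microglia when miR-137 is lost.

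Complex I (NADH dehydrogenase) is the entry point of the respiratory chain. Its matrix arm takes electrons from NADH in the N module and passes them along iron-sulfur clusters to ubiquinone in the Q module, and its membrane arm pumps protons. The membrane arm is built from parts named after the mitochondrially encoded proteins at their centre, here the ND1, ND2, ND4 and ND5 modules. Core subunits carry out the catalysis and are shared with bacteria, accessory subunits surround and stabilise them, and assembly factors help to build the complex without staying in it. In macrophages, complex I is known as a source of reactive oxygen species during reverse electron transport. The 45 genes comprised 36 subunits, of which 7 are core and 29 accessory, 7 assembly factors, and Ndufa4 and Ndufa4l2, which are kept apart because Ndufa4 is now assigned to complex IV and Ndufa4l2 is its hypoxia-inducible paralogue. The 7 mitochondrially encoded subunits, Ndufb1 and Ndufaf8 were not analysed here.

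miR-137 acts by pairing its seed, bases 2 to 8, with sites in target transcripts. The mature microRNA, whose gene is flanked by loxP sites in the cKO mice, is shown first, with the seed in capitals, followed by the 2 places in the 45 genes where the longest annotated 3′ UTR holds the seed match AGCAATA, in capitals (microRNA from RefSeq GRCm38.p6 at chr3:118433901-118433923, plus strand, UTRs from GENCODE M21).
mmu-miR-137-3p: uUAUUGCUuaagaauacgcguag
Ndufa3: cagaggtgggAGCAATAaacggtgacc
Ndufb8: cttataagaaAGCAATAacagtcacca
The Ndufa3 match lies at position 205 of a UTR of 235 bases. The Ndufb8 match lies at position 1405 of a UTR of 1643 bases, which belongs to a longer transcript than the principal one of 680 bases. A match was present in 2 of the 45 genes (4.44%) and in 1300 of 12614 tested genes with an annotated 3′ UTR (10.3%), while the median UTR was 235 bases in the 45 genes and 1192 bases in the tested genes. Both genes changed by close to the median of the 45 (1.98). Ndufa3, a small accessory subunit of the ND1 module, had a log2 fold change of 2.08, and Ndufb8, an accessory subunit of the ND5 module, one of 2.11.

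Estimated counts per library totalled 16503817 to 17482042 in cWT and 12068698 to 15212806 in cKO. Of 13490 genes tested, 35.6% were called higher and 36.5% lower in cKO. For Mir137 the authors' deposited table lists a base mean of 0, and the loss of the microRNA could not be read from these data. Tmem119 was at 402, 415 and 459 CPM (counts of a gene over the library's TMM-scaled total) in cWT and at 828, 1246 and 1179 CPM in cKO, a log2 fold change of 1.35 (standard error 0.13, adjusted p = 4.763e-08 by edgeR). The 10 microglial markers summed to 34054 to 36247 CPM in cWT and 32071 to 36344 CPM in cKO, with 4 called higher and 5 lower. Markers of other cells were far lower in sum. The 8 neuronal markers gave 14.0 to 16.9 CPM in cWT and 20.2 to 27.6 CPM in cKO (2 of 3 tested were called higher), and the 5 endothelial markers gave 917 to 1107 and 1387 to 1662 CPM (2 called higher, 3 lower). The 6 astrocyte markers gave 373 to 386 CPM in cWT and 349 to 606 CPM in cKO (1 called higher), the 6 oligodendrocyte markers 273 to 283 and 291 to 429 CPM (4 called higher, 1 lower), and the 5 erythroid markers 113 to 163 and 102 to 212 CPM (1 called lower). The 4 heart and muscle markers, from tissues rich in complex I, summed to at most 0.266 CPM in a cWT library and 0.607 CPM in a cKO library. No marker of these lists was at 0 in all libraries, but Nefl of neurons and Hbb-bs of red blood cells were at 0 in every cKO library. Hbb-bs had been at 23.9, 23.4 and 6.22 CPM in cWT. The other erythroid markers were present in every cKO library, Hbb-bt at 19.3, 27.5 and 8.88 CPM. The neuronal, endothelial and oligodendrocyte sums were higher in every cKO library, but the markers within a list did not move alike. Of the endothelial markers, Ly6c1 had a log2 fold change of 1.95 and Cldn5 0.66. Flt1 had -2.16, Cdh5 -1.54 and Pecam1 -0.31. The neuronal sum was mostly Stmn2. The part that RNA of other cells has in the values below was not tested. In bulk samples such as these, fewer cells of a type and less RNA per cell cannot be told apart.

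Nduf transcripts of every module of complex I were higher in cKO. The values that follow take no account of transcript length, which is treated below. The 45 genes together took 0.166, 0.152 and 0.148% of all counts in the 3 cWT libraries and 0.464, 0.450 and 0.408% in the 3 cKO libraries. Their summed level was 1461, 1304 and 1312 CPM in cWT and 5451, 5011 and 4716 CPM in cKO, or 1359 ± 88.2 against 5059.5 ± 370.1 CPM (SD, n = 3), a ratio of 3.72. Within a genotype the libraries stood in a recurring order: 36 of the 45 genes were highest in cWT library 1 among the cWT libraries, 33 were highest in cKO library 1 among the cKO libraries, and 30 were lowest in cKO library 3. The order was not counted over all genes tested, so it may not be particular to the Nduf genes.

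All 45 genes passed the filter on low counts, the lowest count of any of them in a library being 40. In edgeR's quasi-likelihood test 44 of the 45 were called higher at an adjusted p under 0.05, beside 35.6% of all genes tested. By edgeR 0 were called lower, beside 36.5% of all genes, and none was lower at an unadjusted p under 0.05 or by DESeq2 or limma-voom. The gene that was not called was Ndufa4l2. In 43 of the 45 genes every cKO library lay above every cWT library, which held for 36.7% of all genes tested, and the exceptions were Ndufaf4 and Ndufa4l2. The median log2 fold change was 1.98 (a fold of 3.95), with a range from 0.26 in Ndufs1 to 3.07 in Ndufs5, while the median over all genes tested was -0.02. The rise exceeded 2-fold in 41 genes and 4-fold in 21. The authors' deposited table has 44 of the 45 genes higher at its adjusted p and 0 lower, with a median log2 fold change of 1.99, beside 29.2% and 28.7% of all genes with an adjusted p in that table.

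**Figure D1:**
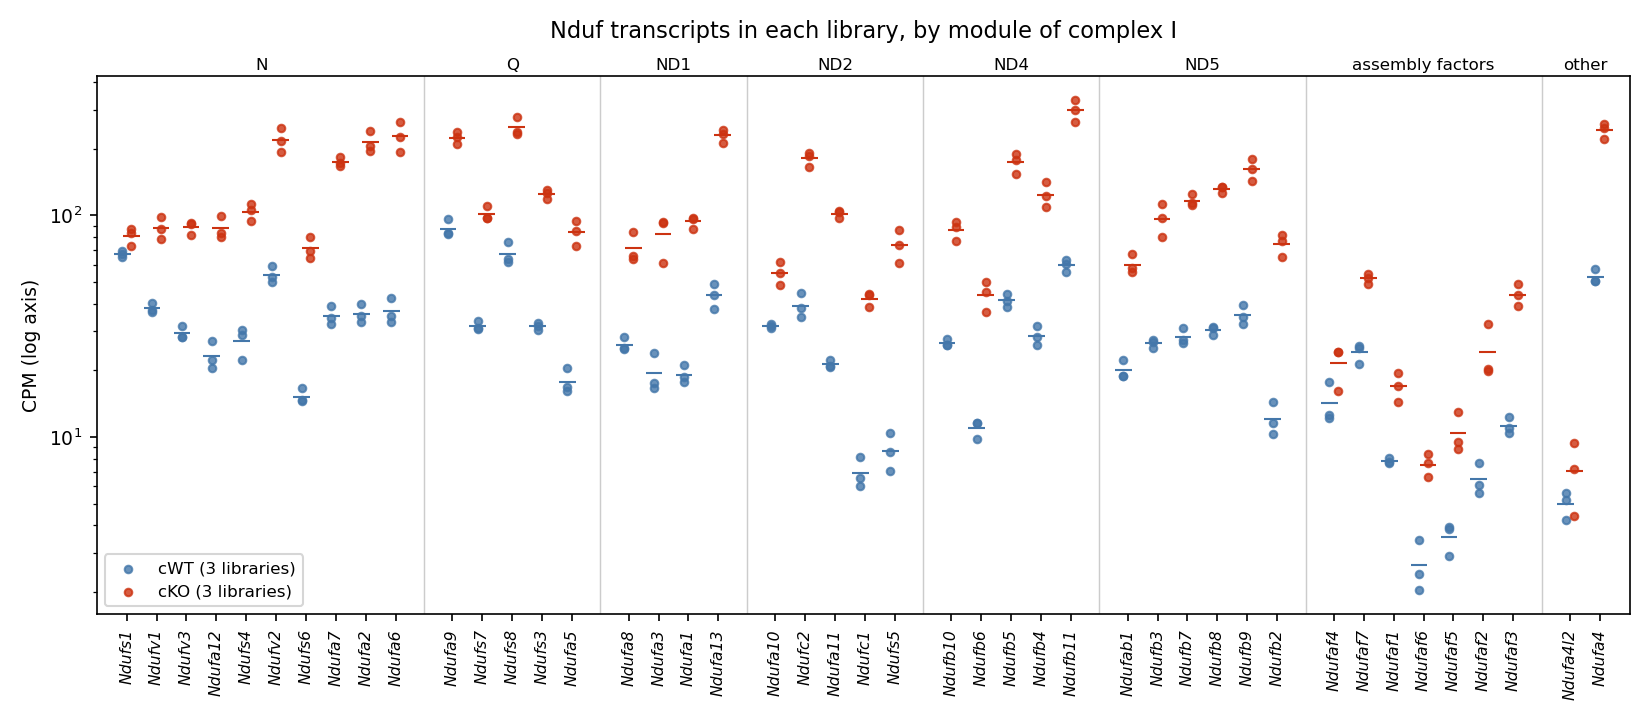
Level of 44 of the Nduf genes in CPM (vertical axis, log scale) in the 3 cWT and the 3 cKO libraries, grouped by module of complex I and ordered within a module by log2 fold change. Points are libraries and short lines are means. The cKO points lie above the cWT points in 42 of the 44 genes, and the points overlap in Ndufaf4 and Ndufa4l2.

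The N module, which binds NADH, held both the smallest and some of the largest changes. All 10 of its genes were called higher, beside 35.6% of all genes tested. Their log2 fold changes ran from 0.26 to 2.62, with a median of 1.97. Ndufs1, the largest core subunit, which holds several of the iron-sulfur clusters (chromosome 1, 63143592 to 63176822, 19 exons, GRCm38.p6), was at 69.4, 64.8 and 67.2 CPM in cWT and at 82.9, 86.7 and 72.4 CPM in cKO. The groups did not overlap, but cKO library 3 lay only a little above the highest cWT library. Its log2 fold change was 0.26 (standard error 0.10, adjusted p = 0.0219 by edgeR), from 67.1 ± 2.31 to 80.7 ± 7.40 CPM (SD, n = 3). The call was kept without cWT library 1 and without cKO library 3, but not without any other single library: the edgeR adjusted p was 0.1004 without cWT library 2, 0.0691 without cWT library 3, 0.0559 without cKO library 1 and 0.0734 without cKO library 2, and scaling by library totals alone turned the value to -0.13 (edgeR adjusted p = 0.258). The authors' deposited table gives Ndufs1 a log2 fold change of 0.27 with an adjusted p of 0.0263.

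Its core partners of the N module changed more. Ndufv1, which carries the NADH and flavin site, was at 37.5, 40.3 and 36.7 CPM in cWT and at 87.0, 78.5 and 98.5 CPM in cKO, a log2 fold change of 1.21 (standard error 0.11, adjusted p = 9.449e-09 by edgeR). Ndufv2, which carries an iron-sulfur cluster beside that site, was at 59.0, 52.7 and 50.2 CPM in cWT and at 247, 215 and 193 CPM in cKO, a log2 fold change of 2.02 (SE 0.11). The ratio of counts of Ndufs1 to Ndufv1, proteins present in equal number in the complex, was 1.85, 1.61 and 1.83 in cWT and 0.953, 1.10 and 0.735 in cKO. The ratio of Ndufs1 to Ndufv2 was 1.18, 1.23 and 1.34 in cWT and 0.336, 0.403 and 0.376 in cKO. Both ratios were lower in every cKO library than in any cWT library, and since each is taken within a library, neither depends on how libraries were scaled. The part of transcript length in these ratios was not tested.

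The accessory subunits of the N module are small proteins around this core. Ndufa6 (chromosome 15, 82350139 to 82354291), which binds the acyl carrier protein of the complex, was at 42.3, 35.3 and 33.2 CPM in cWT and at 263, 226 and 194 CPM in cKO. Its log2 fold change of 2.62 (standard error 0.12, adjusted p = 7.917e-12 by edgeR) was the largest of the module, and the lowest cKO library was far above the highest cWT library. Ndufa2, a subunit with a thioredoxin-like fold, was at 39.7, 35.1 and 32.9 CPM in cWT and at 239, 206 and 194 CPM in cKO, a log2 fold change of 2.57 (edgeR adjusted p = 3.275e-12). The log2 fold changes were 2.30 for Ndufa7, 2.22 for Ndufs6 and 1.93 for Ndufs4, whose human counterpart is mutated in Leigh syndrome, and 1.91 for Ndufa12 and 1.59 for Ndufv3.

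All 6 genes of the Q module, where ubiquinone is reduced, were called higher, beside 35.6% of all genes tested. Their median log2 fold change was 1.79. Ndufa5, a small accessory subunit of the matrix arm, was at 20.5, 16.8 and 16.1 CPM in cWT and at 94.7, 84.8 and 72.4 CPM in cKO, with a log2 fold change of 2.24 (standard error 0.13, adjusted p = 3.779e-11 by edgeR), the largest of the module. The core subunits Ndufs7 and Ndufs8, which carry the last iron-sulfur clusters before ubiquinone, had log2 fold changes of 1.68 and 1.90. Ndufs3, a core subunit on which the module is built up, had 1.98, and Ndufa9, an accessory subunit that binds a nucleotide cofactor, 1.36.

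The membrane arm is represented here by accessory subunits alone, and all 20 were called higher, beside 35.6% of all genes tested. Their median log2 fold change was 2.11, beside 1.92 over the 16 genes of the matrix arm. Of the ND1 module, which joins both arms, Ndufa8, a protein of the intermembrane space, changed least. It was at 24.9, 25.1 and 28.3 CPM in cWT and at 65.6, 63.5 and 84.0 CPM in cKO, a log2 fold change of 1.44 (standard error 0.12, adjusted p = 4.667e-09 by edgeR). Ndufa13, also known for a role in interferon-induced cell death, was at 48.9, 38.0 and 43.8 CPM in cWT and at 244, 233 and 211 CPM in cKO, with a log2 fold change of 2.39 (standard error 0.11, adjusted p = 5.692e-12 by edgeR). Ndufa1 had a log2 fold change of 2.29. Ndufa3, the gene with the seed match near the end of its UTR, was at 24.0, 16.7 and 17.5 CPM in cWT and at 93.5, 92.5 and 60.9 CPM in cKO, so that cKO library 3 stood below the other two.

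The ND2 module held the largest rise of the 45 genes. Ndufs5, an intermembrane-space subunit (chromosome 4, 123712710 to 123718186), was at 7.08, 10.4 and 8.60 CPM in cWT and at 85.7, 73.3 and 61.0 CPM in cKO. The means of 8.69 ± 1.66 and 73.3 ± 12.4 CPM (SD, n = 3) gave a log2 fold change of 3.07 (standard error 0.15, adjusted p = 1.204e-11 by edgeR), a fold of 8.41. The deposited counts of Ndufs5 were not whole numbers in any of the 6 libraries. Among the 45 genes only Ndufa13 also had such values, at 741.98 in cWT library 2 and 2628.99 in cKO library 2. Reads of both may be shared with similar sequences, and the level of Ndufs5 is uncertain. Ndufc1 rose from 6.01, 6.55 and 8.14 CPM in cWT to 44.0, 43.7 and 38.7 CPM in cKO, a log2 fold change of 2.61, and its cKO libraries stood close together. Ndufa11, a membrane subunit, was at 22.2, 20.99 and 20.7 CPM in cWT and at 103, 104 and 97.7 CPM in cKO (log2 fold change 2.25), and Ndufc2 had a log2 fold change of 2.20. Ndufa10, a peripheral subunit related to nucleoside kinases, changed least of the module, from 31.7, 32.3 and 31.1 CPM in cWT to 55.1, 48.5 and 61.8 CPM in cKO, a log2 fold change of 0.80 (standard error 0.11, adjusted p = 3.198e-06 by edgeR).

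In the ND4 module the 5 genes had a median log2 fold change of 2.07. Ndufb11, an X-linked membrane subunit (chromosome X, 20615326 to 20617619), was at 62.6, 60.0 and 55.6 CPM in cWT and at 330.3, 299.9 and 263 CPM in cKO, the highest CPM of the 45 genes in cKO, with a log2 fold change of 2.32 (standard error 0.11, adjusted p = 5.559e-12 by edgeR). Ndufb10, an intermembrane-space subunit, was at 26.2, 27.7 and 25.9 CPM in cWT and at 88.7, 76.8 and 93.0 CPM in cKO, with the smallest log2 fold change of the module, 1.70. The small membrane subunits Ndufb6, Ndufb5 and Ndufb4 had log2 fold changes of 1.998, 2.07 and 2.11.

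The 6 genes of the ND5 module also had a median log2 fold change of 2.07. Ndufab1, the mitochondrial acyl carrier protein, which serves lipoic acid synthesis as well as complex I, changed least, from 22.4, 18.8 and 19.0 CPM in cWT to 55.3, 57.9 and 66.8 CPM in cKO (log2 fold change 1.58, standard error 0.12, adjusted p = 1.129e-09 by edgeR). Ndufb2 changed most, from 14.4, 11.6 and 10.4 CPM to 81.3, 76.5 and 65.0 CPM (log2 fold change 2.61, standard error 0.13, adjusted p = 1.546e-11 by edgeR). Ndufb8, the other gene with a seed match, was steady within each genotype, at 31.2, 29.0 and 31.3 CPM in cWT and at 135, 127 and 134 CPM in cKO. Ndufb3, Ndufb7 and Ndufb9 had log2 fold changes of 1.86, 2.04 and 2.18.

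The 7 assembly factors lay mostly at the low end of the 45 genes in CPM, and their sum went from 70.1 ± 8.22 to 177 ± 17.9 CPM in sum (SD, n = 3), a ratio of 2.52. All 7 were called higher, beside 35.6% of all genes tested, and 6 of them without overlap between the genotypes, beside 36.7%. Their median log2 fold change was 1.51, beside 2.05 over the 36 subunits. Ndufaf4 and Ndufaf3 act together early in the assembly of the Q module, yet their values lay at opposite ends of this group. Ndufaf4 (chromosome 4, 24898083 to 24905001) was at 17.7, 12.2 and 12.6 CPM in cWT and at 24.1, 24.3 and 16.2 CPM in cKO, so that cKO library 3 lay below cWT library 1. Its log2 fold change was 0.60 (standard error 0.17, adjusted p = 0.005036 by edgeR), and 0.20 with an adjusted p of 0.306 when libraries were scaled by their totals alone. Ndufaf3 was at 12.4, 10.95 and 10.5 CPM in cWT and at 48.9, 39.1 and 43.7 CPM in cKO, a log2 fold change of 1.96 (standard error 0.13, adjusted p = 2.214e-10 by edgeR).

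Ndufaf6, which is needed for the ND1 module, had the lowest level per transcript length in cWT, with 3.46, 2.05 and 2.43 CPM in cWT and 8.37, 7.62 and 6.60 CPM in cKO (log2 fold change 1.51, edgeR adjusted p = 2.375e-05). Ndufaf5, which hydroxylates an arginine of Ndufs7, was at 3.94, 2.92 and 3.84 CPM in cWT and at 9.54, 8.86 and 12.98 CPM in cKO (log2 fold change 1.56, edgeR adjusted p = 3.69e-06). Both were low but separated by genotype. Ndufaf7, a mitochondrial arginine methyltransferase, was at 25.8, 21.3 and 25.1 CPM in cWT and at 54.2, 49.1 and 52.5 CPM in cKO. Ndufaf1, part of the complex that assembles the ND2 module, was at 8.03, 7.68 and 7.74 CPM in cWT and at 19.6, 17.003 and 14.4 CPM in cKO. Ndufaf2, a paralogue of Ndufa12 that holds its place during assembly, was at 7.66, 5.63 and 6.12 CPM in cWT and at 32.5, 19.9 and 20.3 CPM in cKO, where library 1 stood above the other two.

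The paralogues Ndufa4 and Ndufa4l2 did not move alike. Ndufa4, the complex IV subunit, was at 57.3, 50.4 and 50.7 CPM in cWT and at 258, 246 and 221 CPM in cKO, a log2 fold change of 2.19 (standard error 0.10, adjusted p = 5.91e-12 by edgeR). Ndufa4l2 (chromosome 10, 127509274 to 127517154) was at 5.59, 5.22 and 4.25 CPM in cWT and at 7.20, 4.43 and 9.41 CPM in cKO, with raw counts of 105, 102 and 84 against 74, 50 and 124. The groups overlapped, because cKO library 2 lay below the cWT mean. Its log2 fold change was 0.49 (standard error 0.25, adjusted p = 0.0849 by edgeR), and 0.75 with an edgeR adjusted p of 0.00774 without cKO library 2. The authors' deposited table gives 0.49 with an adjusted p of 0.138. The difference between the changes of Ndufa4 and Ndufa4l2 was not tested.

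Fold changes in this comparison went with transcript length, both among the 45 genes and over the whole table. Across 12983 tested genes with an annotated length, Spearman's rho between log2 fold change and the length of the principal transcript was -0.72, and across the 45 genes it was -0.56, or -0.74 when each gene took its shortest principal transcript. These are correlations across genes of the same 6 libraries, and genes are not independent replicates. Their transcripts had a median length of 983 bases and an interquartile range of 680 to 1487 bases, against a median of 3001 bases over tested genes. The 23 genes under 1000 bases had a median log2 fold change of 2.18, and the 22 longer ones 1.59. Among the 1753 tested genes with transcripts of 680 to 1487 bases, 83.1% were called higher, and their median log2 fold change was 1.34. Of the 45 genes 23 lie in this range of lengths, and 22 of these were called higher, with a median log2 fold change of 1.96. Why short transcripts were higher in cKO was not tested.

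**Figure D2:**
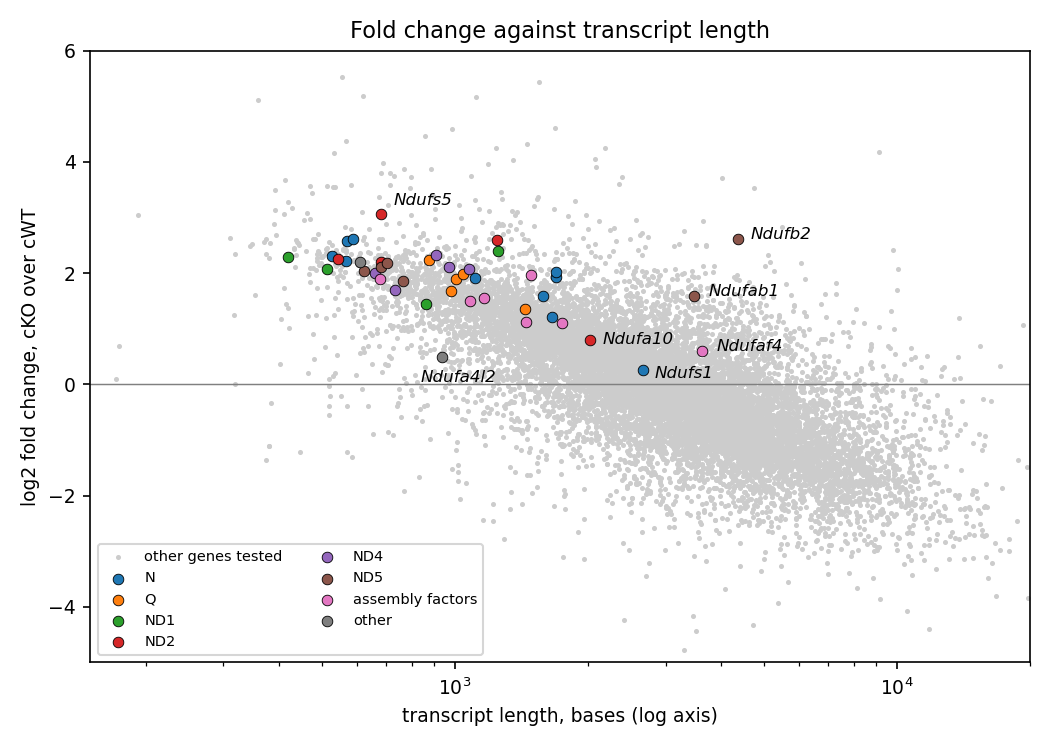
Log2 fold change, cKO over cWT (vertical axis), against the length of the principal transcript in bases (horizontal axis, log scale), with 1 point per gene. Coloured points are 44 Nduf genes by module and grey points the other tested genes, of which 16 lie outside the axes. The grey cloud descends with length, and most Nduf genes lie at its short, upper end.

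To measure how far length and base composition go with the change, the test was repeated with offsets that remove each library's smooth trend with length and GC content over all genes. With these offsets 27.8% of tested genes were called higher and 28.9% lower. Among the 45 genes 32 were called higher, 1 lower and 12 not called, and the median log2 fold change was 0.55 in place of 1.98, beside -0.03 over all genes and 0.09 over genes of 680 to 1487 bases. All 6 Q module genes and all 5 ND2 module genes stayed called higher, as did 9 of 10 in the N module, 5 of 6 in the ND5 module, 3 of 5 in the ND4 module, 3 of 7 assembly factors and 1 of 4 in the ND1 module. The matrix arm kept 15 of 16 calls, with a median of 0.61, and the membrane arm 14 of 20, with a median of 0.53. The gene that lost its call in the N module was Ndufs1, whose value with offsets was 0.0049.

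With offsets the largest values among the subunits of the matrix arm were those of Ndufv2 (0.9985), Ndufs4 (0.95), Ndufv3 (0.89) and Ndufa6 (0.80). In the membrane arm, Ndufa13 had 1.58, Ndufc1 1.26 and Ndufs5 1.20. Of the assembly factors, Ndufaf3 (1.18), Ndufaf4 (0.61) and Ndufaf7 (0.26) stayed called higher, while Ndufaf1, Ndufaf2, Ndufaf5 and Ndufaf6 did not. Ndufa4 had 0.14 and was not called, and Ndufa4l2 turned to -0.72 and was called lower (edgeR adjusted p = 0.00972). These values depend on the transcript taken for a gene. Ndufb2 had 3.01 with its longest principal transcript of 4371 bases and 1.11 with its shortest of 455 bases, and Ndufab1 had 1.71 at 3479 bases and 0.60 at 1416 bases. With the shortest principal transcript for every gene, 39 of the 45 were called higher, beside 30.6% of all genes, 1 lower, beside 28.8%, and 5 not called.

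**Figure D3:**
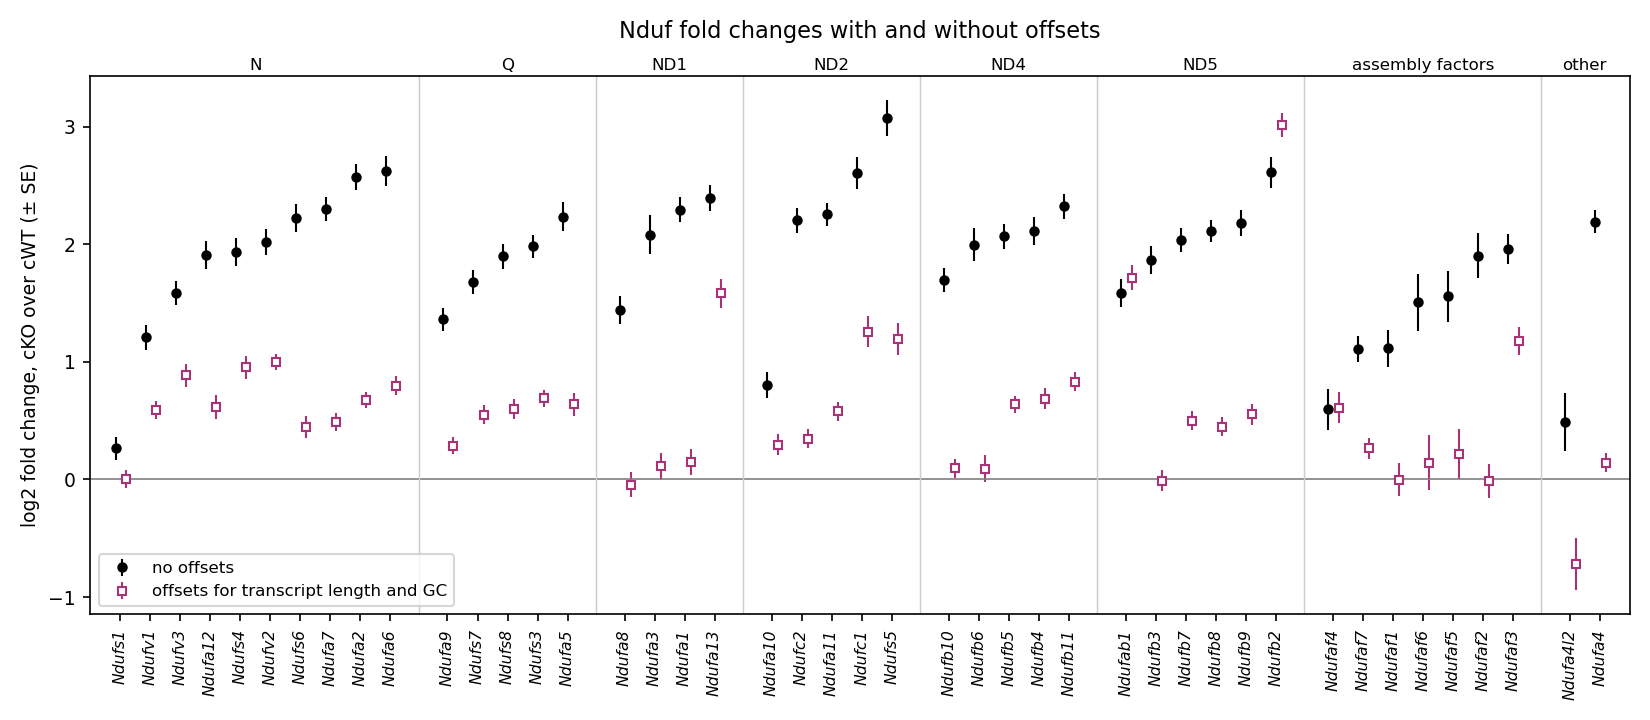
Log2 fold change, cKO over cWT, of 44 Nduf genes with its standard error (vertical axis), without offsets (filled circles) and after offsets for length and GC (open squares), by module. The filled circles run from 0.26 to 3.07. The squares lie lower except in Ndufb2, Ndufab1 and Ndufaf4, and the square of Ndufa4l2 is the lowest, while those of Ndufa8, Ndufaf1, Ndufaf2 and Ndufb3 lie just below 0.

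Most of the 45 genes encode parts of the same complex, and their proportions were compared within each library, which needs no scaling between libraries. As a share of the summed Nduf counts, 20 genes were higher in every cKO library than in any cWT library, 12 were lower and 13 overlapped. Over all tested genes, set against the same Nduf sum, 2.07% were higher and 89.5% lower in this way. That sum in CPM was itself 3.72 times as high in cKO, so most other genes fall against it. The shares of the 45 genes add up to the whole, so a rise of some entails a fall of others. These percentages therefore do not measure how unusual the counts among the 45 genes are. The share that differed most was that of Ndufs1, from 4.95 to 1.60% (means of 3 libraries). Among the other abundant genes, the share of Ndufa9 went from 6.41 to 4.43%. The share of Ndufa10 went from 2.34 to 1.10% and that of Ndufaf4 from 1.04 to 0.423%. Shares were higher in cKO for Ndufs5, from 0.646 to 1.44%, for Ndufa6, from 2.71 to 4.48%, for Ndufa2, from 2.64 to 4.21%, and for Ndufb11, from 4.38 to 5.87%. Ndufs8 kept 4.91 and 4.93%, with overlapping libraries. Of the 12 genes with a lower share 11 had transcripts of 1000 bases or more, and of the 20 with a higher share 15 had transcripts under 1000 bases. The part of length in these shares was not tested.

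**Figure D4:**
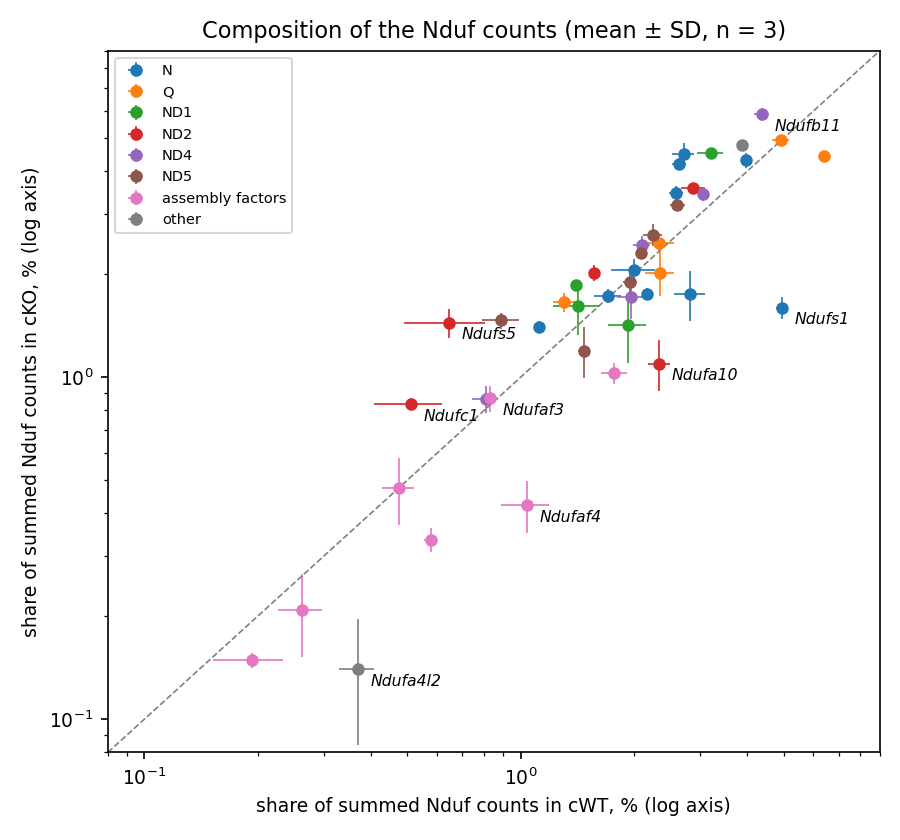
Share of the summed Nduf counts taken by each of 44 genes in cWT (horizontal axis, %, log scale) and cKO (vertical axis, %, log scale), as mean ± SD of 3 libraries, coloured by module. The dashed line marks equal shares. Ndufs1, Ndufa10, Ndufaf4 and Ndufa4l2 lie below it and Ndufs5, Ndufc1 and Ndufb11 above it.

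Levels of different genes were compared as CPM per 1000 bases of the principal transcript. The highest level over all libraries was that of Ndufa4, with 86.6 ± 6.36 in cWT and 396 ± 31.2 in cKO (CPM per kilobase, SD, n = 3). Ndufa6 followed with 62.6 ± 8.13 and 386 ± 59.1, and Ndufa2 with 62.8 ± 6.04 and 373 ± 41.1. In cKO these 3 genes did not differ beyond their spread. In cWT Ndufa4 stood above the rest, while Ndufa6 and Ndufa2 lay within their spread of Ndufa7 (66.8 ± 6.64), Ndufs8 (66.6 ± 7.74) and Ndufb11 (65.5 ± 3.89). The lowest by the mean over both genotypes were the assembly factors Ndufaf6, with 2.44 ± 0.67 in cWT and 6.96 ± 0.82 in cKO, Ndufaf5, with 3.06 ± 0.48 and 8.97 ± 1.90, and Ndufaf4, with 3.91 ± 0.84 and 5.93 ± 1.28. In cWT Ndufb2, set against its longest principal transcript, lay among them at 2.78 ± 0.47, and Ndufaf6, Ndufb2 and Ndufaf5 overlapped within their SDs, as did Ndufaf5 and Ndufaf4. In cKO Ndufaf4 was the lowest.

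Among the 7 core subunits, which the complex holds in equal number, the levels per length were further apart in cKO. In cWT the order of those described here ran from Ndufs8 (66.6) through Ndufs7 (32.3), Ndufv2 (31.8) and Ndufs3 (30.2) to Ndufs1 (25.2) and Ndufv1 (23.0 CPM per kilobase), the highest being 2.90 times the lowest. In cKO it ran from Ndufs8 (248) through Ndufv2 (129), Ndufs3 (119) and Ndufs7 (103) to Ndufv1 (53.0) and Ndufs1 (30.3), and the highest was 8.19 times the lowest. Division by length does not remove the trend of fold change with length. Ndufs8 and Ndufs1, with transcripts of 1005 and 2661 bases, had log2 fold changes of 1.90 and 0.26. With the offsets for length and GC content these were 0.60 and 0.0049. The part of length in the wider spread was not tested. The order over all 45 genes was nevertheless much the same, with a Spearman's rho of 0.94 between the genotypes across genes, given as a description of levels that share their lengths. The fold change of a gene was unrelated in rank to its level in cWT (rho 0.03 across the 45 genes).

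The 45 genes lie on 16 chromosomes, with 2 on the X chromosome, so they are not a cluster. Of the 45, 22 overlap another annotated gene and 14 overlap a gene of the count table. No source used here gives the strand setting, so reads from a gene and an overlapping partner cannot be told apart. RefSeq promoters, taken as 250 bases before to 50 bases after the start, were given for 39 of the 45 genes. Motifs were searched on both strands by exact letters. The NRF1 motif GCGCATGCGC, bound by a regulator of respiratory genes, was in a promoter of 3 of the 39 genes (7.69%) and of 290 of all 27025 genes with a promoter (1.07%). The 3 were Ndufa11, Ndufaf4 and Ndufaf5. The motif AAGATGG of YY1 was in 7 (17.9%, against 7.28%), CCGGAAG of GABPA in 5 (12.8%, against 9.93%) and GGGCGG of SP1 in 20 (51.3%, against 38.2%). These matches describe letters only.

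Of the 3 promoters with the NRF1 motif, those of Ndufa11 and Ndufaf4 are shown because these genes lie far apart in fold change, at 2.25 and 0.60. Capitals mark the NRF1 motif and, in Ndufaf4, also the GGGCGG matches of SP1, which overlap each other (RefSeq, GRCm38.p6, chr17:56717512-56717811, plus strand, and chr4:24897833-24898132, plus strand).
Ndufa11: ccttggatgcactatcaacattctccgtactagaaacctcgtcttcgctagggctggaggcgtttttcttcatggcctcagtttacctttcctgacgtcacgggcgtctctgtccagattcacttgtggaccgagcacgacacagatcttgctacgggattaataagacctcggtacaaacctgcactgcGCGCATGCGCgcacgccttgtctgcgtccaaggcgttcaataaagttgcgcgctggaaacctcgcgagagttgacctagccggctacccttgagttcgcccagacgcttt
Ndufaf4: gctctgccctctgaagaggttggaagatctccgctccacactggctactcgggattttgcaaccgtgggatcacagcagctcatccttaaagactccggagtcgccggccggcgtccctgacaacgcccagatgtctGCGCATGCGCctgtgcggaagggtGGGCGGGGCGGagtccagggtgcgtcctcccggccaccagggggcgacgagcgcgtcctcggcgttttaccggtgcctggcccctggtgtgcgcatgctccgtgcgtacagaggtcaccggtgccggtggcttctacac
The promoter of Ndufs5, the gene with the largest rise, held none of the 4 motifs in this window.

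Other genes that serve complex I were followed from lists. Of 14 assembly factors without an Nduf name, 11 were tested, and 9 were called higher and 0 lower by edgeR, with a median log2 fold change of 1.16, beside 35.6% and 36.5% of all genes. None was lower at an unadjusted p under 0.05 or by DESeq2 or limma-voom. Nubpl, which delivers iron-sulfur clusters, had a log2 fold change of 1.60, Tmem126a and Tmem126b, which act on the membrane arm, 1.56 and 1.44, and Timmdc1, an assembly factor of the ND1 module, 1.16. Acad9 (0.19, edgeR adjusted p = 0.136) and Tmem186 (-0.13, edgeR adjusted p = 0.387), partners of Ndufaf1 in one assembly complex, were not called. Acad9 was called higher with the offsets for length and GC content (0.54, edgeR adjusted p = 8.799e-05), and Tmem186 lower under library totals alone (-0.53, edgeR adjusted p = 0.00246). Library totals alone also took the calls of Ecsit (0.13), Aifm1 (0.21) and Foxred1 (-0.055), with edgeR adjusted p of 0.512, 0.135 and 0.688. With the offsets for length and GC content 4 of the 11 were called higher and 1 lower, beside 27.8% and 28.9% of all genes tested, with a median of 0.18. The called decrease was that of Lyrm2, at 1.22 without offsets and -0.92 with them.

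The 10 regulators of mitochondrial biogenesis moved in both directions, with 3 called higher and 5 lower, beside 35.6% and 36.5% of all genes tested. A list of 10 genes is too short to set these counts apart from those shares. Their median log2 fold change was -0.28, and the median length of their transcripts was 3961 bases. Tfam, which packages mitochondrial DNA, and Tfb2m, which starts its transcription, had log2 fold changes of 0.92 and 0.84, and the nuclear receptor gene Esrra 0.41. Esrra lost its call under library totals alone (0.020, edgeR adjusted p = 0.876) and with offsets for length alone (0.055, edgeR adjusted p = 0.671). Ppargc1b and Pprc1, coactivators of respiratory genes, had -2.27 and -2.14. Levels of Ppargc1b were low, at 2.61, 2.46 and 2.07 CPM in cWT and 0.487, 0.354 and 0.607 CPM in cKO (standard error of its log2 fold change 0.42). Pprc1 had means of 35.4 CPM in cWT and 7.97 CPM in cKO. The related Ppargc1a was also low, with means of 1.24 and 1.40 CPM. Gabpa, Yy1 and Polrmt, the mitochondrial RNA polymerase, had -0.70, -0.36 and -0.47. Gabpa lost its call with the offsets for length and GC content (-0.17, edgeR adjusted p = 0.0823). Nrf1, whose protein binds the motif above, had -0.20 and Ppargc1a 0.17, and neither was called. Both depended on the setting: with the offsets Nrf1 had -0.80 and was called lower (edgeR adjusted p = 8.661e-07), as it was under library totals alone (-0.59), and Ppargc1a had 1.06 (edgeR adjusted p = 0.0535) and was called higher, at 1.11 to 1.26, in the other 3 offset settings. With the offsets the list changed sign, with 5 called higher, 3 lower and a median of 0.33, and Yy1 and Polrmt turned to 0.72 and 0.26.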

How the data were processed

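RNA sequencing of microglia from 3 cWT and 3 cKO samples, grouped by title, was analysed from 2 deposited tables. The authors deposited estimated counts per gene symbol, not scaled between libraries, and since 5.50 to 5.85% of them per library were not whole, they were rounded before testing. The submitters' processing notes name STAR 2.7.9a, RSEM, DESeq2, GRCm38 and mm10, without saying what each was used for. Neither the annotation nor the strand setting is given in the sources used here. The second deposited table, the authors' comparison, holds per the file headers the base mean (a signal, the average of scaled counts), log2 fold changes with standard errors, the Wald score, and p-values with their adjusted p-values. Within a genotype, chi-square per degree of freedom between libraries was 3.84 to 19.3, so none was counted as a duplicate.

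edgeR 4.0.16 (R 4.3.3) was used for a two-sided quasi-likelihood test per gene, with TMM scaling, robust dispersions and genotype as the only term. The filter filterByExpr (minimum count 10) left 13490 of 17459 genes, and p-values were adjusted by Benjamini-Hochberg over all of them, with calls at an adjusted p under 0.05. The script was checked on simulated data in which few genes changed and the changes did not follow transcript length. Log2 changes of -1 and 1 were called in 68 and 86% of 50 genes each, and changes of -2 and 2 in 92 and 100%. The check does not cover data in which as many genes change as here. Lengths and GC content came from GENCODE M21 principal transcripts (the longest where several rank equally) for 12983 tested genes, and offsets from smooth trends per library (mgcv 1.9.3, basis dimension 10). Coordinates, promoters and the microRNA came from RefSeq GRCm38.p6. Alternatives were DESeq2 1.42.0, limma 3.58.1 (voom), other scalings and filters, a replicate block, each library left out, and offsets. Offsets from the shortest principal transcript were added after seeing the data.

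The genes named with full statistics were the largest and smallest log2 fold change of each module, the 3 highest and 3 lowest levels per length, genes not called higher or overlapping between genotypes, Tmem119 and Mir137. Values per library of Ndufv1, Ndufv2, Ndufa3, Ndufa11, Ndufb8, Ndufc1, Ndufaf1, Ndufaf2 and Ndufaf7, and the pathway genes given as examples, were picked after their values were seen. The genes, gene lists and markers were chosen with earlier results of these data known. The roles given to genes are background, and modules follow textbook structure. Exact permutation tests were not used, since 3 against 3 samples cannot give a two-sided p under 0.10. The values of 1 Nduf gene are not reported here or drawn, though it is part of the counts and medians.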

Additional observations from a re-analysis of the deposited data

How the results depend on the processing

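The number of Nduf genes called higher was 43 to 44 and called lower 0 when each library was left out in turn, with a median log2 fold change of 1.91 to 2.03 and 9116 to 9717 calls over all genes (9729 with all libraries). DESeq2, voom, RLE scaling and a stricter filter on low counts each gave 44 higher, and no filter gave 43, with medians of 1.94 to 2.0. Under scaling by library totals alone 42 were called higher with a median of 1.59, and the median of all genes moved from -0.02 to -0.42. Of the values of single genes under all alternatives, 1091 kept direction and side of the threshold, 53 lost the call, 14 gained it and 46 changed sign.

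With offsets the median of the Nduf genes was 0.55 for length and GC content, 0.44 for length alone, 0.55 with the replicate block added and 0.78 with the shortest principal transcript, and 1 gene, Ndufa4l2, was called lower in each. In these 4 settings in that order Ndufa4l2 had -0.72, -0.98, -0.74 and -0.58, Ecsit -0.14, -0.23, -0.15 and -0.24, Tmem186 0.037, 0.093, 0.025 and 0.10, Lyrm2 -0.92, -0.63, -0.92 and -0.27, and Yy1 0.72, 0.69, 0.72 and 0.73. In the first 3, Ndufa8 had -0.045, -0.13 and -0.052, Tmem126a -0.27, -0.092 and -0.27, and Foxred1 -0.050, -0.027 and -0.052. In the settings with GC content, longest transcript, without and with the block, Ndufaf1 had -0.0010 and -0.0037, Ndufaf2 -0.015 and -0.019, and Ndufb3 -0.0100 and -0.012, while Polrmt had 0.26 and 0.26, and 0.22 with the shortest transcript. With length alone Ndufb10 had -0.044 and Gabpa 0.031. Library totals alone turned Ndufs1 to -0.13, Acad9 to -0.21, Foxred1 to -0.055 and Ppargc1a to -0.23. Ppargc1a ranged from -0.17 (without cWT replicate 3) to 0.60 (without cWT replicate 2) when 1 library was left out, with -0.14 without cKO replicate 2. The cause of these changes was not tested.

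The same replicate numbers occur in both genotypes, but no label says that a number marks a shared animal or batch. Deviations of same-numbered libraries from their genotype's mean correlated at 0.0335 to 0.0985, and every library correlated best with its own number. These correlations are weak, and deviations from a mean of 3 libraries constrain each other, so they cannot show a pairing. A replicate block left 44 Nduf genes called higher with a median of 1.98, and gave 9911 calls over all genes. With 3 libraries a genotype, small changes such as those of Ndufs1 and Ndufa4l2 are at the limit of what can be called.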
